A study of Mus musculus with 12 samples.

Results

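Cleavage and polyadenylation at different poly(A) sites (PASs) of the same 3′-most exon give mRNAs that share their coding sequence and differ in the length of the 3′UTR. The stretch between the first and the last such PAS, the alternative 3′UTR (aUTR), is present only in the longer isoforms and can hold binding sites for miRNAs and RNA-binding proteins. The authors of the data compared the 2 most abundant 3′UTR isoforms of a gene, so their aUTR can be shorter than the stretch used here. In neurons, 3′UTRs are known for their roles in mRNA transport to dendrites and axons and in local translation. Described here are genes whose 3′UTR PASs lay at a middle distance from each other. They were chosen from the deposited list of PASs by position alone: a gene had to have 2 or more PASs labelled exon3 (the 3′-most exon) on a single chromosome, with the outermost ones more than 250 and at most 800 nt apart. This rule gave 1877 of the 7465 genes with 2 or more exon3 PASs, or 25.1%, out of 16627 listed genes. Their exon3 PASs numbered 5335.

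The list came from 3′READS+, a method that sequences the 3′ ends of transcripts, applied to acute hippocampal mini-slices of C57BL/6 mice given as 3 months old in the labels. The dentate gyrus had been trimmed off, and the slices recovered for 2 hr in perfused artificial cerebrospinal fluid (ACSF). The LTP group was stimulated chemically, with the adenylyl cyclase activator forskolin (50 μM) throughout and, in the last 5 min, also with raised KCl (30 mM) and Ca2+ (10 mM). Slices of the same animals that saw only the vehicle, 0.2% DMSO, over the same 10 min served as controls. The 12 libraries formed 4 groups of 3 (control and LTP, 1 hr and 3 hr after treatment), and each slice held neurons together with glial and vascular cells. The columns of read numbers carry names that match no label of these libraries, so they were given to no library, and neither the depth nor the response to LTP was analysed here. The values below count listed sites, each of which weighs the same whatever its number of reads. The list held 55813 distinct sites, more than the authors counted in any single library after limits on read number and relative abundance. No such limit was applied here. Positions are in mm9, the genome build given in the labels. The list has no replicates. The 95% Wilson intervals show the precision that the number of genes gives, and differences between groups of genes were not tested.

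The span is what the rule used, and its values are a description. Over the 1877 genes, the outermost exon3 PASs were a median of 482 nt apart, with quartiles at 359 and 622 nt. *Stt3a*, a catalytic subunit of the oligosaccharyltransferase complex, was 1 of the genes just inside the lower limit, with 2 PASs. *Hk1*, the gene of hexokinase 1, lay just outside it with 2 PASs 249 nt apart. At the upper limit, the outermost PASs of *Epc1* were 800 nt apart, and those of *Mboat2* lay just beyond the limit. No break in the distribution of spans marked either limit, as the plot of spans shows.

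**Figure D1:**
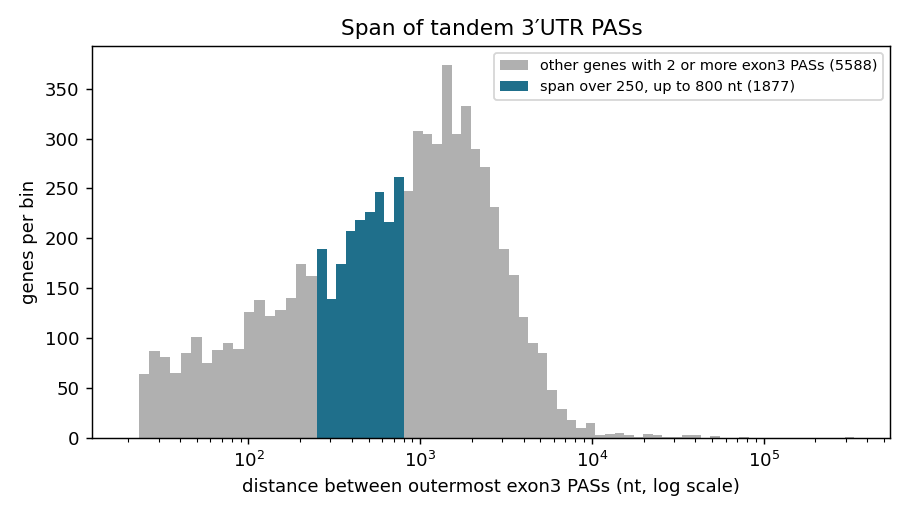
Distance between the outermost exon3 PASs of a gene (nt, log scale) for all 7465 genes with tandem exon3 PASs. Bars give genes per bin. Blue marks the 1877 genes with spans over 250 and up to 800 nt, and grey all others. The distribution extends without a gap beyond both limits. Bin width changes at both limits, so bar heights on either side of a limit are not comparable.

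Of the 1877 genes, 951 had exactly 2 exon3 PASs (50.7%, 95% Wilson interval 48.4% to 52.9%), the simplest arrangement of a proximal and a distal site. A further 520 genes had 3 PASs (27.7%), 13.4% of the genes had 4, and 155 had 5 or more (8.26%). Genes with shorter spans held fewer sites: 80.3% of the 1820 genes spanning up to 250 nt had exactly 2 PASs. Genes with longer spans held more, with 33.4% of the 2203 genes spanning over 800 and up to 2000 nt and 21.2% of the 1565 genes spanning over 2000 nt having exactly 2. The mean number of exon3 PASs per gene was 2.24, 2.84, 3.45 and 4.24 in the order of these 4 groups, so that sites per gene rose less than the span did. The median distance between neighbouring PASs was 71 nt in the shortest group, 228 nt in the genes described here, and 372 and 569 nt in the longer groups. The largest gap possible is set by the span, so these distances follow the grouping in part. The same holds for the number of sites, since the span is the range of the sites counted and more sites tend to cover a wider range.

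**Figure D2:**
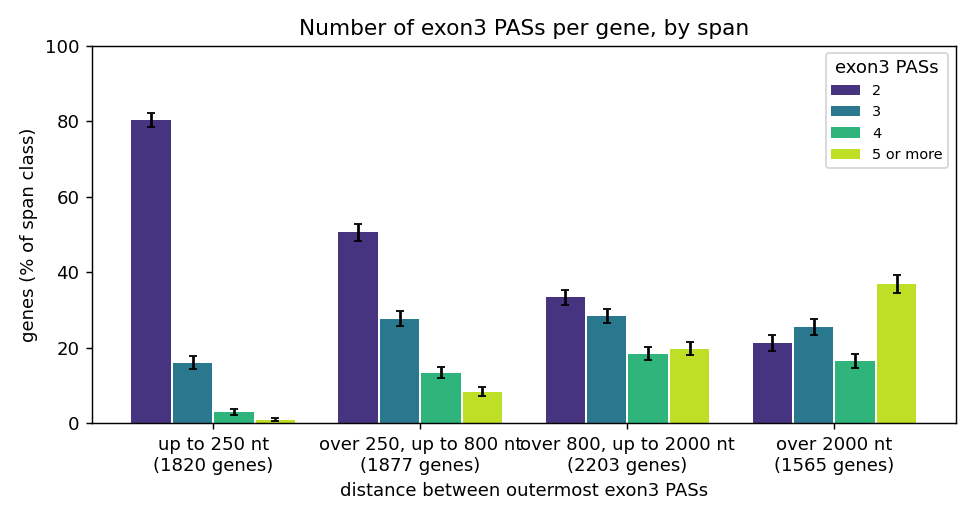
Share of genes (% of each span class) with 2, 3, 4 or 5 or more exon3 PASs, with 95% Wilson intervals as error bars. In the class spanning over 250 and up to 800 nt, 50.7% of genes had exactly 2 PASs, between the 80.3% of the shorter and the 33.4% of the next longer class.

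Within the 1877 genes, the number of sites is described over 3 equal parts of the range of spans, with the same limit. Of the 757 genes in the lowest part, up to 433 nt, 42.5% (39.1% to 46.1%) had 3 or more exon3 PASs. This share was 52.7% (48.8% to 56.5%) of the 638 genes in the middle part, up to 617 nt. It was 55.6% (51.1% to 60.0%) of the 482 genes in the highest part, an interval that overlaps that of the middle group. The mean number of PASs was 2.65, 2.94 and 3.02, respectively.

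Inside the span, gaps between neighbouring sites differed in length. Of the 3458 neighbouring pairs, 429 (12.4%) lay 50 nt or less apart and 1009 (29.2%) 100 nt or less apart. The closest pairs were 25 nt apart, just beyond the 24 nt within which the authors had clustered PASs. In the 926 genes with 3 or more PASs, a single gap took up more than 50% of the span in 766 (82.7%). With 3 PASs and unequal gaps this is always so. In genes with 4 or more PASs, it was the case in 246 of 406 (60.6%). Whether sites placed at random would give another share was not tested. Of the 926 genes with 3 or more PASs, the longest gap was the first in 403 (43.5%) and the last in 377 (40.7%). With 3 PASs, it can only be the first or the last. These counts include 19 protocadherin gamma genes listed with the same 4 PASs. In each of them the first gap was the longest and took up more than 50% of the span. In the 520 genes with exactly 3 PASs, the second gap was longer than the first in 254 (48.8%, 44.6% to 53.1%), an interval that includes 50%. The 1581 internal PASs had a median relative position of 0.51, where 0 is the first and 1 the last PAS. The fewest were between 0.4 and 0.6, with 268 (17.0%), and the most from 0.8 onwards, with 359 (22.7%).

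**Figure D3:**
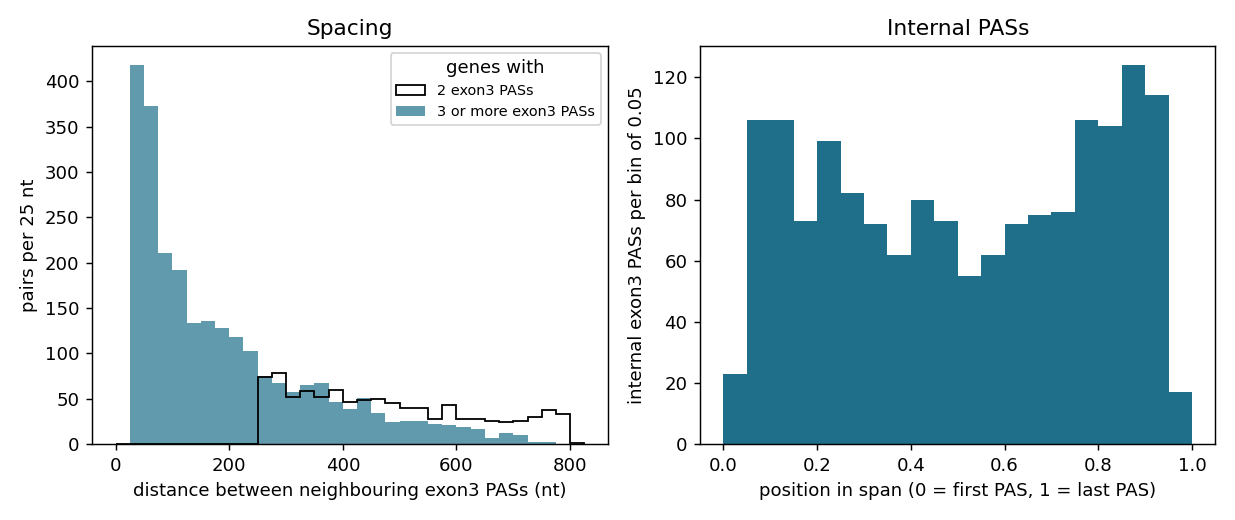
Left, distance between neighbouring exon3 PASs (nt, pairs per 25 nt) in the 951 genes with 2 exon3 PASs (black line) and in the 926 genes with 3 or more (blue bars), all among the 1877 genes; the blue bars are highest below 100 nt. Right, position of the 1581 internal PASs relative to the first (0) and the last PAS (1) of their gene; the outermost bins are low because sites closer than 25 nt are not listed separately.

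Genes with many sites in a short aUTR were rare. *Psap*, the precursor of the saposins that activate lysosomal sphingolipid breakdown, had the most, with 12 exon3 PASs in 775 nt on the plus strand of chromosome 10, the first at 59764573 and the last at 59765348. *Tmed9*, a p24 family cargo receptor of the early secretory pathway, had 11 in 386 nt on chromosome 13, with gaps of 25 to 62 nt. Next came genes with 8 exon3 PASs each. *Csrp1*, a LIM domain protein, spanned 665 nt. *Dtx1*, a Deltex ubiquitin ligase of the Notch pathway, spanned 619 nt. *Nr2f1*, an orphan nuclear receptor that patterns the forebrain, spanned 521 nt, and *Prkcc*, the gamma isoform of protein kinase C, 455 nt. While no gap in *Tmed9* stood out, the sites of *Csrp1* fell into a pair at the start and a group of 6 at the end, separated by 409 nt.

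Other PASs of the same genes were not used by the rule. An intronic PAS was listed for 742 of the 1877 genes (39.5%, 37.3% to 41.8%). Composite terminal exons (label intron_Comp) accounted for most of them, with 708 genes, against 112 genes with a skipped terminal exon (intron_Skip). The nearest intronic PAS upstream lay a median of 9003 nt before the first exon3 PAS (741 genes), far outside the aUTR. Sites beyond the annotated gene end (exon3ext) were listed for 316 genes (16.8%, 15.2% to 18.6%), the first of them a median of 584 nt past the last exon3 PAS. In these 316 genes, the distance from the first exon3 to the last exon3ext PAS had a median of 1744 nt. Upstream antisense sites (UA) were listed for 315 genes (16.8%). No PAS with any other label was listed for 837 genes (44.6%), of which 529 had 2 exon3 PASs and nothing else.

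The intronic share was close in all span classes, at 38.7% for spans up to 250 nt, 39.8% for over 800 and up to 2000 nt and 40.2% for over 2000 nt, and the intervals overlapped. The UA share ranged from 15.2% to 16.8% with overlapping intervals. The exon3ext share was 14.6% in the shorter class, 15.5% in the next longer class and 12.7% (11.1% to 14.4%) in genes spanning over 2000 nt. This last interval lay below that of the 1877 genes.

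**Figure D4:**
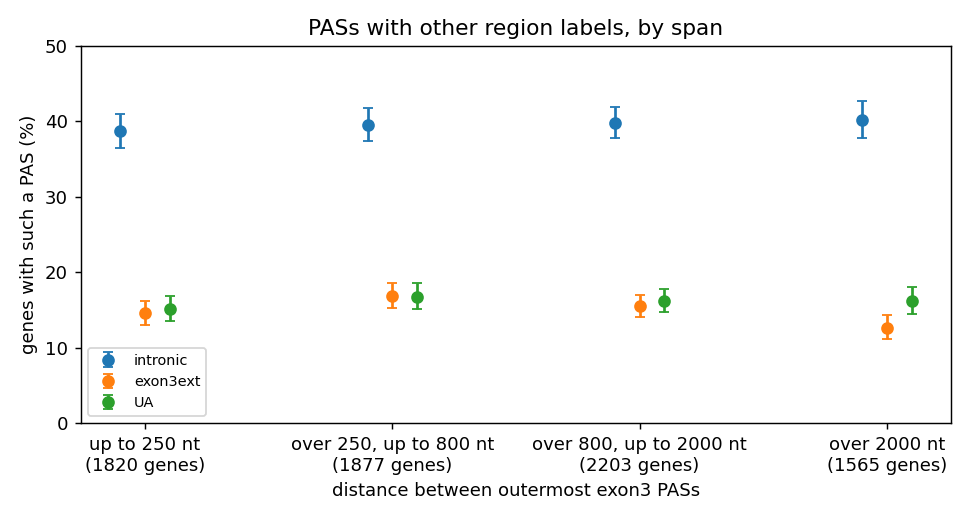
Share of genes (%) with an intronic, an exon3ext or a UA PAS in each span class, with 95% Wilson intervals. The intronic share lay between 38.7% and 40.2% in all 4 classes; the exon3ext share was 16.8% for spans over 250 and up to 800 nt and 12.7% for spans over 2000 nt.

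Neighbouring genes ended inside or near some of these aUTRs. In 52 genes (2.77%), an exon3 PAS of a gene on the opposite strand lay between the first and the last exon3 PAS. This share was 2.91% for spans up to 250 nt, 5.45% for over 800 and up to 2000 nt and 3.96% for over 2000 nt, and a longer span leaves more room for such a site. Within 500 nt of the last PAS, an opposite-strand exon3 PAS was found for 125 genes (6.66%, 5.62% to 7.88%). This share was 10.5% for spans up to 250 nt, 6.54% for over 800 and up to 2000 nt and 3.83% (2.99% to 4.90%) for over 2000 nt. *Syn1*, which encodes the vesicle phosphoprotein synapsin I, showed the closest such neighbour among the list genes below with spans in this range. A PAS of *Araf*, a Raf family kinase gene, lay 5 nt before the last PAS of *Syn1*.

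Almost all of the genes code for proteins. Of the 1877 symbols, 1864 matched a RefSeq symbol or synonym. Among them, 1825 (97.2% of all 1877) were protein-coding and 30 were lncRNA genes. The shares among the other listed genes are not given here, so these values describe the 1877 genes only. The lncRNA genes with the most sites were *2610100L16Rik*, with 5 exon3 PASs in 545 nt, and *A530058N18Rik*, with 5 in 703 nt. Not all entries are separate loci. Exactly the same exon3 PASs were listed for 27 of the 1877 genes, so that the distinct sets numbered 1855. In the protocadherin gamma cluster, 19 genes with different first exons share a constant last exon, and each was listed with the same 4 PASs spanning 548 nt. Other shared sets included those of *Tnfsf13* and *BC096441*, *Moap1* and *AK010878*, and *Schip1* and *Iqcj-schip1*. The protocadherin genes lie on chromosome 18, where 81 of 240 genes with tandem PASs (33.8%) had spans in this range. Without genes that share sites, this was 62 of 218 (28.4%).

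Lists of genes with known roles at the synapse and in mRNA processing were counted against the 25.1% found over all genes with tandem exon3 PASs. Among 40 activity-induced genes, 19 had 2 or more exon3 PASs, and 8 of these (42.1%) had spans in this range. Fewer such genes were found among the glutamate receptors and their auxiliary subunits (2 of 16, 12.5%) and among the synaptic kinases and phosphatases (2 of 23, 8.70%). In both of these lists, most tandem genes had longer spans: 9 of 16 and 16 of 23 spanned over 800 nt. The counts are small, describe these lists only and leave out genes that the deposited list holds under another symbol.

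Several of the 8 activity-induced genes encode transcription factors. *Fosb*, a partner of Jun proteins in AP-1, had 3 exon3 PASs on the minus strand of chromosome 7, at 19888623, 19888378 and 19888045, with gaps of 245 and 333 nt. *Nr4a1* and *Nr4a2* encode orphan nuclear receptors induced by neuronal activity and differed in their number of sites. *Nr4a1* had 2 PASs 274 nt apart and no other PAS. *Nr4a2* had 6 exon3 PASs over 772 nt of the minus strand of chromosome 2, at 56960374, 56960035, 56959942, 56959915, 56959758 and 56959602, and 13 PASs in all. Its nearest intronic PAS lay 911 nt before the first of them. *Klf4*, a zinc finger factor, had a close pair 51 nt apart and a last PAS 534 nt further on.

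The other activity-induced genes act outside the nucleus or in signalling. *Dusp5*, a phosphatase that inactivates ERK, had 4 exon3 PASs over 751 nt. *Rgs4*, which speeds the turnoff of G protein signalling, had 3 over 629 nt, the second gap being 195 nt. *Cyr61*, a secreted matrix-associated protein, had 2 PASs 284 nt apart. *Homer1*, the postsynaptic scaffold gene, had 2 exon3 PASs 323 nt apart and an intronic PAS 43225 nt upstream of the first. With its exon3ext sites, the last listed 3′ end of *Homer1* lay 9275 nt beyond the first exon3 PAS.

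Receptor genes with such spans mostly had 2 sites. *Cnih3*, an auxiliary protein of AMPA receptors, had PASs at 183390046 and 183390625 on the plus strand of chromosome 1, 579 nt apart, and no others. *Neto1*, an auxiliary subunit of kainate receptors, had 2 exon3 PASs 370 nt apart, an exon3ext PAS 200 nt further on and 8 intronic PASs. For inhibitory synapses, 4 of 13 tandem genes (30.8%) were found. The GABA-A receptor subunit gene *Gabra2* had 3 exon3 PASs on the minus strand of chromosome 5, at 71352826, 71352607 and 71352398, almost evenly spaced by 219 and 209 nt, and 9 intronic PASs. *Gabra5*, another alpha subunit gene, had 2 exon3 PASs 736 nt apart, with intronic sites close by, the nearer of them 2153 nt upstream of the first. *Gabbr2*, a subunit of the GABA-B receptor, had 2 exon3 PASs 544 nt apart and 7 intronic sites. *Gphn*, which anchors glycine and GABA-A receptors, had 2 exon3 PASs 505 nt apart and also 7 intronic sites. All of the intronic sites of *Gphn* lay 12611 nt or more upstream.

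**Figure D5:**
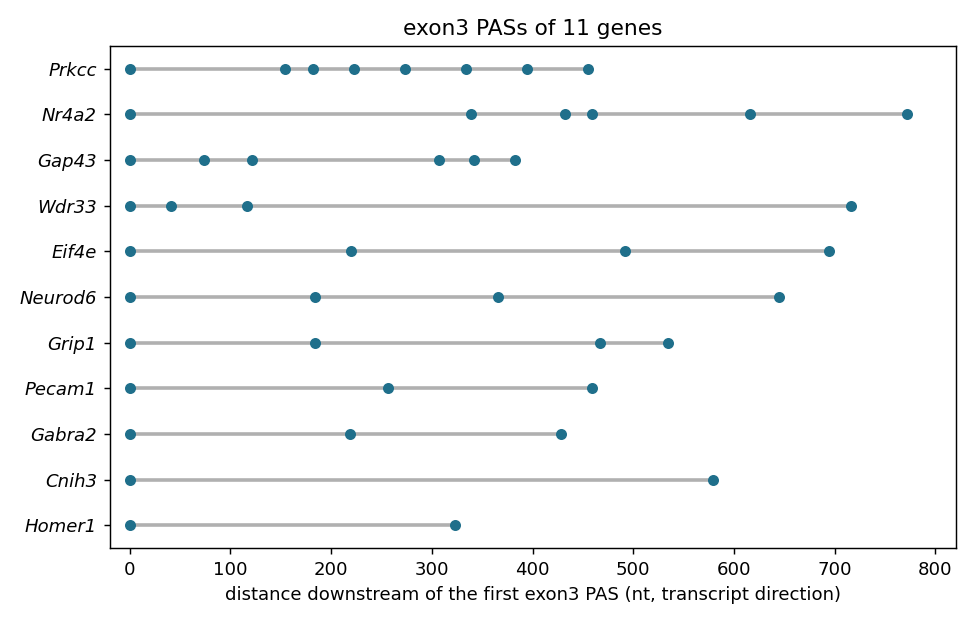
exon3 PASs (points) of 11 genes, as distance downstream of the first exon3 PAS (nt, in the direction of transcription); the grey line is the span. The 3 sites of *Gabra2* are 219 and 209 nt apart, while *Wdr33* has 3 sites within 116 nt and a last one at 716 nt.

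Scaffold and adhesion genes accounted for 3 of 13 tandem genes on their list (23.1%). *Grip1*, a PDZ protein that binds AMPA receptors, had 4 exon3 PASs on the plus strand of chromosome 10, at 119513671, 119513855, 119514138 and 119514205, and 13 intronic sites. *Shank2*, a scaffold of the postsynaptic density, had a pair 52 nt apart and a last PAS 387 nt further on. In contrast to *Grip1*, *Shank2* was listed with no other PAS.

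Among the genes of presynaptic release, 4 of 20 tandem genes fell in this range. *Unc13a*, which primes vesicles for fusion, had 4 exon3 PASs over 714 nt, with gaps of 227 to 244 nt. Its spacing was thus near-regular. *Syn1* had 2 exon3 PASs on the minus strand of chromosome X, 606 nt apart, and an intronic PAS 717 nt upstream. *Sncb*, the gene of beta-synuclein, had 2 PASs 282 nt apart and no others.

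The kinase list gave *Prkcc* and *Map2k2*. Among the list genes with spans in this range, *Prkcc* had the most exon3 PASs. They lay on the plus strand of chromosome 7 at 3330561, 3330715, 3330743, 3330784, 3330834, 3330895, 3330955 and 3331016. After a first gap of 154 nt, its sites followed each other at 28 to 61 nt. Its nearest intronic PAS lay 150 nt before the first exon3 PAS and its first exon3ext PAS 45 nt past the last, so that its listed sites ran on past both ends of the aUTR. *Map2k2*, which encodes the ERK kinase MEK2, had 2 exon3 PASs 359 nt apart and an exon3ext PAS 9279 nt beyond.

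Genes of the cleavage and polyadenylation machinery gave 2 of 13 tandem genes (15.4%), both for subunits of the complex that recognizes the poly(A) signal. *Cpsf4* had 2 exon3 PASs 607 nt apart and no other PAS. In *Wdr33*, the last gap of 600 nt took up most of the 716 nt span. Its 2 intronic PASs lay 72736 nt or more upstream of the first exon3 PAS.

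RNA-binding regulators of neuronal mRNA contributed 7 of 29 tandem genes (24.1%), a share close to the 25.1% of all tandem genes. *Eif4e*, the cap-binding translation factor, had 4 exon3 PASs on the plus strand of chromosome 3, at 138219653, 138219873, 138220145 and 138220347, and 3 exon3ext PASs that began 2313 nt further on. *Cpeb1*, a regulator of cytoplasmic polyadenylation, had a pair 43 nt apart and a last PAS 477 nt further on. *Stau1*, which takes part in mRNA transport, showed the reverse order, with a first gap of 584 nt and a second of 131 nt. *Celf1*, a splicing and decay factor, also had its longer gap first, of 392 nt. It was the only list gene described here in which intron_Skip sites (7) outnumbered intron_Comp sites (1). *Ptbp2*, a splicing repressor of developing neurons, had 3 PASs over 253 nt. *Fmr1*, which encodes the translational regulator FMRP, had 2 PASs 431 nt apart. *Elavl4*, an AU-rich element binding protein, had 2 PASs 571 nt apart. *Stau1*, *Ptbp2*, *Fmr1* and *Elavl4* were listed with exon3 PASs alone.

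Of the 33 genes on the list of the axonal and dendritic cytoskeleton, 28 were found under the symbol used. Among these, 11 had tandem exon3 PASs, and 3 of the 11 (27.3%) were in this range. The count misses *Mtap1a* and *Mtap4*, the older symbols of *Map1a* and *Map4*. Each of these had 2 exon3 PASs, 494 and 777 nt apart. *Gap43*, a growth cone protein, had 6 exon3 PASs over 383 nt of the minus strand of chromosome 16, at 42249071, 42248997, 42248950, 42248764, 42248729 and 42248688. They fell into 2 clusters of 3, separated by 186 nt. *Tuba1b*, an alpha-tubulin gene, had 4 PASs over 558 nt, the first set off from the rest by 402 nt, and *Cfl2*, a cofilin gene, 2 PASs 669 nt apart.

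Marker genes of other cell types in the slices and of hippocampal neurons were also present. Of the glial and vascular markers, 4 of 15 tandem genes (26.7%) had such spans. The oligodendrocyte lineage genes *Cnp* and *Olig2* had 2 exon3 PASs each, 777 and 346 nt apart. *Csf1r*, a receptor of microglia, had 2 PASs 365 nt apart, with a PAS of the opposite-strand gene *Hmgxb3* 143 nt beyond the last. The endothelial gene *Pecam1* had 3 PASs on the minus strand of chromosome 11, at 106515990, 106515734 and 106515531. Of the markers of hippocampal neurons, 2 of 6 tandem genes were found. *Neurod6*, a transcription factor of pyramidal neurons, had 4 PASs on the minus strand of chromosome 6, at 55628454, 55628270, 55628088 and 55627809. *Wfs1*, an endoplasmic reticulum protein enriched in CA1, had 2 exon3 PASs 330 nt apart. Which cells gave rise to a listed site cannot be read from the list.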

How the data were processed

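3′READS+ libraries were made from 1 hr and 3 hr control and LTP slices, 3 per group. The authors mapped reads with bowtie 2, per the labels to mm9 (version not given in the sources used here), identified PASs from reads with unaligned Ts and clustered PASs within 24 nt. They deposited 1 table for all libraries, with gene symbol, strand, position in nt and region label of each PAS. Its 12 columns of read numbers were not used, because columns were assigned to samples by name only.

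Genes, spans, gaps and labels were computed with Python 3.11.15, pandas 2.3.3, numpy 2.4.6 and scipy 1.17.1, and plotted with matplotlib 3.10.9. The choice of genes by span and the count of genes with intronic labels were tested on simulated data. Merging of close sites was tested on a small example, and the other steps were not tested in this way. Labels were read from their names, since the sources used here do not define them. Gene symbols were compared with Ensembl names (1714 of 1877 matched) and RefSeq genes (GRCm38). No coordinates or sequence were taken from GRCm38, because the build differs, and poly(A) signals were therefore not examined. The genes and the 11 gene lists were chosen with earlier results of these data known. Singly described are the list members, the genes with the most exon3 PASs (ties kept) and genes at the span limits. The lncRNA genes and the opposite-strand and shared-site genes were chosen after their values were seen. Full positions are given, for most lists, for the gene with the most exon3 PASs (ties broken by the longer span, not for chromosome 18) and for *Fosb*. No library, and so no test, entered the results. Some members counted in the lists and shared sets are not reported here by name.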

Additional observations from a re-analysis of the deposited data

How the results depend on the processing

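The 9 results were recomputed under 6 alternatives: without sites listed under more than 1 gene, with exon3ext sites counted as exon3 sites, with PASs 24 or 50 nt or less apart merged, and with spans over 200 and up to 900 nt or over 300 and up to 700 nt. Shares and medians were compared with the 95% interval of the reported value, and counts with a limit of 1.5 times. Merging PASs 24 nt or less apart could change no value, since no pair was that close. Of the other 45 values, 43 stayed within these bounds. Many had little room to move, so this count does not measure how robust the results are. Without sites listed under more than 1 gene, 1846 of 1847 genes were those of the main set. With the 50 nt merge, 1859 of 1863 were. The span limits also largely set the median span. Merging PASs 50 nt or less apart raised the share of genes with exactly 2 exon3 PASs from 50.7% to 57.6% and the median distance between neighbouring PASs from 228 to 276 nt, since merging removes the closest pairs. Counting exon3ext sites kept 1643 of the 1877 genes in the range and left out 234. The number of genes was 2367 with the wider and 1362 with the narrower limits. The planned comparison of LTP and control libraries and the poly(A) signals were not run, as their inputs were not used here. No paired analysis was possible because columns were given to libraries by name only, and no column of read numbers is named for a replicate. A listed site may rest on few reads in few libraries, and this was not examined.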
